A study of Mus musculus with 12 samples.

Results

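The enzymes described here make serine from glucose and move its one-carbon unit through folate. They are the 10 genes Phgdh, Psat1, Psph, Shmt1, Shmt2, Mthfd1, Mthfd2, Mthfd1l, Aldh1l1 and Aldh1l2, chosen by symbol from the 47730 features of the deposited table, and each had 1 row there. RNA was sequenced from skeletal muscle (gastrocnemius with plantaris) and from testis of male mice on the C57BL/6J background, aged 5 to 6 months and fed freely. The mice were either wild type (Bckdk+/+) or carried a mutant Bckdk allele on both chromosomes (BckdkM/M, titled KO). The product of Bckdk is the kinase that inactivates the branched-chain ketoacid dehydrogenase, the enzyme complex that commits branched-chain amino acids to breakdown. The labels do not give the nature of the mutation. Each of the 4 tissue and genotype groups had 3 libraries, and a letter stands for the mouse number of each. By these numbers, wild-type mice A, B and C gave both tissues, mutant muscle came from D, F and G, and testis labelled mutant came from D, E and F.

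In the phosphorylated pathway of serine synthesis, PHGDH oxidises the glycolytic intermediate phosphoglycerate, PSAT1 adds an amino group taken from glutamate, and PSPH removes the phosphate to leave serine. Serine hydroxymethyltransferase then splits serine into glycine and a one-carbon unit bound to tetrahydrofolate, in the cytosol (SHMT1) or in mitochondria (SHMT2). MTHFD2 and MTHFD1L carry the unit through oxidation to formate in mitochondria, the trifunctional MTHFD1 does the corresponding steps in the cytosol, and ALDH1L1 (cytosol) and ALDH1L2 (mitochondria) oxidise formyl-tetrahydrofolate to carbon dioxide. The units are used for purines, thymidylate and the remethylation of homocysteine, and several of these genes, among them PHGDH, PSAT1, SHMT2 and MTHFD2, are known targets of the amino acid stress factor ATF4.

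The libraries held 12852427 to 15795722 counted reads. Values are counts divided by the authors' size factor for each library (normalised counts). In muscle Bckdk was at 2214, 2421 and 2627 in the wild type and at 14.8, 14.3 and 12.4 in the mutant. In testis the direction was the opposite of the label, with 138, 119 and 114 in the libraries labelled mutant, above the 68.0, 73.3 and 71.0 of the wild type. The testis groups, wild type included, are named by their labels throughout. The labelled tissues were otherwise supported by their markers. The summed germ cell markers of the muscle libraries were 0.789% to 1.92% of their wild-type testis level, and the summed skeletal muscle markers of the testis libraries were at most 0.634% of their wild-type muscle level. Hormone transcripts of pancreatic islet cells were uneven: the sum of 12 islet markers was 32528 and 30639 in mutant muscle F and G against 13562 to 15974 in the other muscle libraries. Testis A and B, both wild type, had 19620 and 19475, against 10746 to 14009 in the other testis libraries.

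Summed over the 10 genes, the normalised counts of the tissues overlapped, at 2456 to 2993 in the 6 muscle libraries and 2674 to 3072 in the 6 testis libraries, but the genes that made up the sum were not the same. Per kilobase of exon, which allows genes to be compared, wild-type muscle was led by the cytosolic Mthfd1 at 173 ± 7.79 (SD, n = 3) and the mitochondrial Shmt2 at 140 ± 18.8. Aldh1l1 (97.5 ± 24.1), Phgdh (87.4 ± 41.9) and Psph (78.8 ± 3.71) followed, and neighbours among these 3 overlapped. Shmt1 was at 62.1 ± 0.167, Psat1 at 25.4 ± 9.07 and Mthfd2 at 20.6 ± 2.88, the last of which overlapped with Psat1. Aldh1l2 (13.9 ± 0.878) and Mthfd1l (6.84 ± 1.24) were lowest.

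Wild-type testis had another order on the same per-kilobase scale. Aldh1l1 was highest at 228 ± 19.0, followed by Shmt1 (109 ± 10.7) and Mthfd2 (107 ± 4.05), which overlapped. Psph (73.9 ± 5.98) and Phgdh (67.8 ± 15.0) came next and also overlapped, above Psat1 (47.9 ± 1.71), Shmt2 (35.2 ± 2.56) and Mthfd1 (28.1 ± 1.79). Mthfd1l was at 13.8 ± 2.62 and Aldh1l2 at 5.19 ± 1.06. Shmt2 and Mthfd1, at the head of the order in muscle, thus ranked 7 and 8 of 10 in testis.

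**Figure D1:**
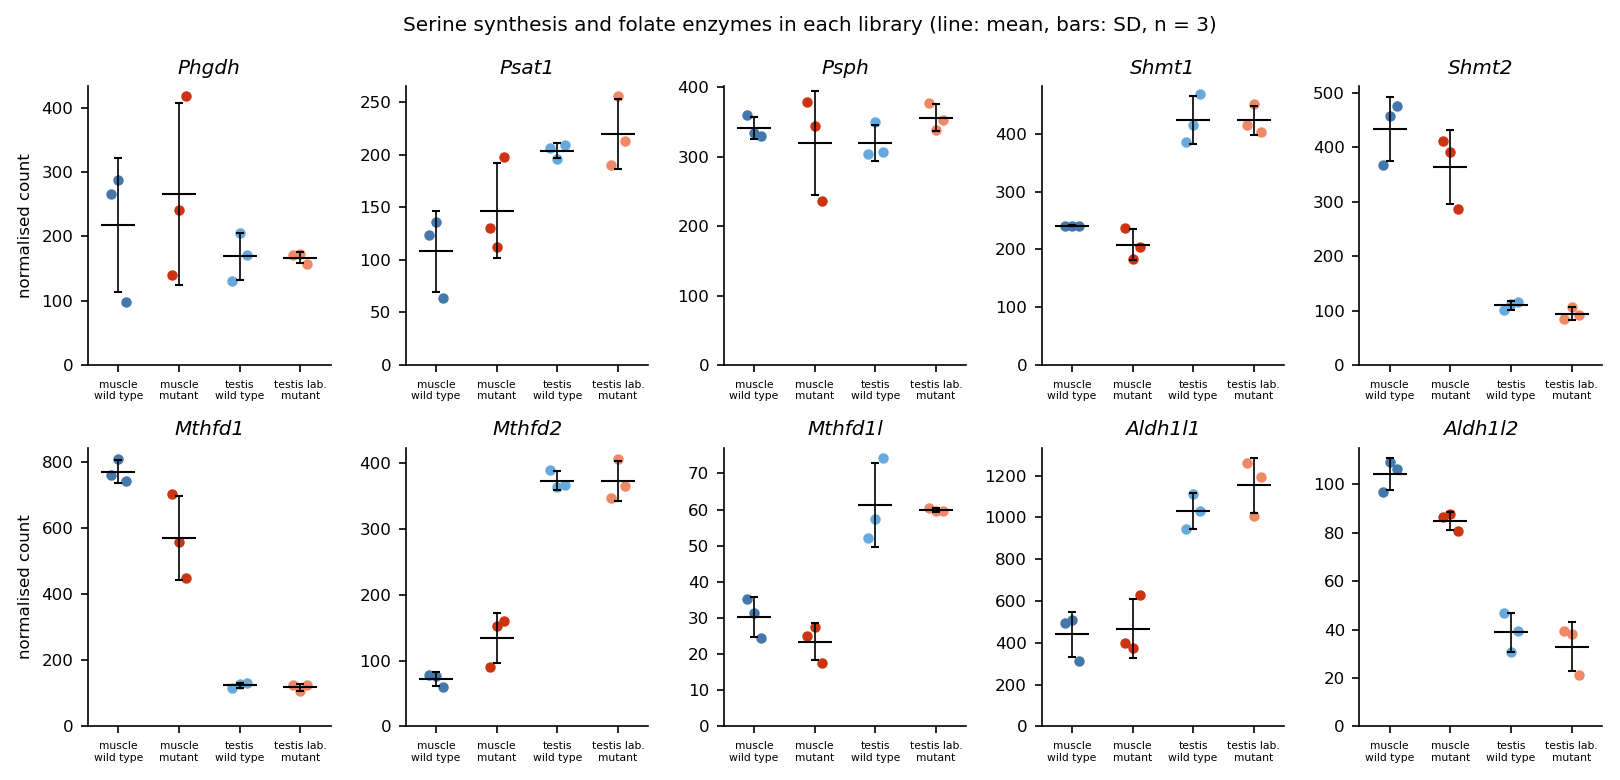
Normalised count of each of the 10 genes (y axes, from 0) in the 4 groups of 3 libraries, with the mean as a line and the SD as bars. Mthfd1, Shmt2 and Aldh1l2 lie higher in muscle than in testis in every library, and Mthfd2, Aldh1l1, Shmt1 and Mthfd1l lie lower.

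Wild-type muscle and wild-type testis were compared gene by gene with limma on log2(normalised count + 1), over 21114 genes. Of the 10 genes 8 passed an adjusted p of 0.05, 3 higher in muscle and 5 lower. This share was no larger than that of all genes tested, of which 87.5% passed (36.5% higher and 51.1% lower in muscle), and the median log2 difference was -0.36 over the 10 genes and -0.54 over all genes. The 2 tissues hold different cells, so more cells of a type and more RNA per cell cannot be told apart in these bulk samples. TMM scaling moved the median of all genes to -0.37 and turned the direction of none of the 10 genes. Differences are given as muscle minus testis, with positions on GRCm38.

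Of the serine synthesis genes, Psph and Phgdh did not pass the test and Psat1 did. Psat1, the aminotransferase (ENSMUSG00000024640, chr19:15904678-15947337, minus strand), had normalised counts of 124, 136 and 64.2 in wild-type muscle and 207, 196 and 210 in wild-type testis, a log2 difference of -0.98 (SE 0.27, adjusted p = 0.00873, limma), and the groups did not overlap. Psph, the phosphatase (ENSMUSG00000029446, chr5:129765558-129787449, minus strand), was at 360, 334 and 330 in muscle and 304, 350 and 306 in testis. Its groups overlapped and its log2 difference of 0.09 had a 95% interval from -0.13 to 0.32 (adjusted p = 0.386, limma). With edgeR on the recovered reads the adjusted p was 0.0314 and with TMM scaling in limma 0.0414, at log2 differences of 0.29 and 0.26, and over all alternatives it ran from 0.0314 to 0.639. Over the exons of Psph, 10.4% of the bases are shared with the opposite-strand gene Cct6a, and the strand used in counting is not given in the sources used here.

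Phgdh, the first enzyme of the pathway (ENSMUSG00000053398, chr3:98313170-98339990, minus strand), was at 266, 288 and 97.6 in wild-type muscle and 131, 205 and 170 in wild-type testis. Its values in muscle spanned those in testis, and its log2 difference was 0.24 (SE 0.40, 95% interval -0.68 to 1.16, adjusted p = 0.584, limma). Without wild-type muscle C the difference was 0.74 (adjusted p = 0.00939, limma), and without wild-type muscle B it was -0.039. Over its 18 alternatives the adjusted p ran from 0.00266 to 0.973.

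The count of Phgdh has to be read beside its processed pseudogenes. In GENCODE M21, 20 annotated processed pseudogenes matched a Phgdh transcript over at least 150 bases at 90.4% to 98.7% identity, and 12 of these had a row in the table. The 12 summed to 1.08 to 4.07 in the 6 muscle libraries, but to 423 to 487 in the 6 testis libraries, above Phgdh itself in every testis library (131 to 205). The pseudogenes Phgdh-ps1 (mean 155 over the 6 testis libraries) and Gm9252 (mean 151), both on chromosome 7, and Gm5847 (mean 43.4) on chromosome 3 took the most. To show how alike they are, 120 bases of the Phgdh open reading frame (bases 22 to 141, from 1 at the A of its ATG) are printed with the aligned bases of these 3 pseudogenes, from the GENCODE M21 transcripts. Capitals mark the bases that differ from Phgdh.
Phgdh: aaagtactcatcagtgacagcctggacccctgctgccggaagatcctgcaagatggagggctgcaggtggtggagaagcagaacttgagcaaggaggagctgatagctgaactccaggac
Phgdh-ps1: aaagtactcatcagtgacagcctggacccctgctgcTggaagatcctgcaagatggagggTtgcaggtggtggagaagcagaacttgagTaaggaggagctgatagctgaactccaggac
Gm9252: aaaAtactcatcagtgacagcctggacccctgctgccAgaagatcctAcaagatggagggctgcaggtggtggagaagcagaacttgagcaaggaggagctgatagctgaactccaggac
Gm5847: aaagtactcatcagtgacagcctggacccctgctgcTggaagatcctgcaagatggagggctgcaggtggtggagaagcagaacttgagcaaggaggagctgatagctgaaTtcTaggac
Each of the 3 pseudogenes differed from Phgdh at 3 of these 120 bases, which are the first stretch of this length that aligned without gaps in all 3. Over the longest match to a Phgdh transcript, identity was 96.6% for Phgdh-ps1 (754 bases), 95.3% for Gm9252 (1605 bases) and 96.2% for Gm5847 (1596 bases). With the counts of the pseudogenes added to Phgdh, which was tried after the values had been seen, the sum was 219 ± 105 in wild-type muscle and 631 ± 41.9 in wild-type testis, and the log2 difference turned to -1.67 (SE 0.37, adjusted p = 0.00266, limma). How reads were divided between Phgdh and these copies was not tested, and the direction of Phgdh between the tissues depends on it.

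**Figure D2:**
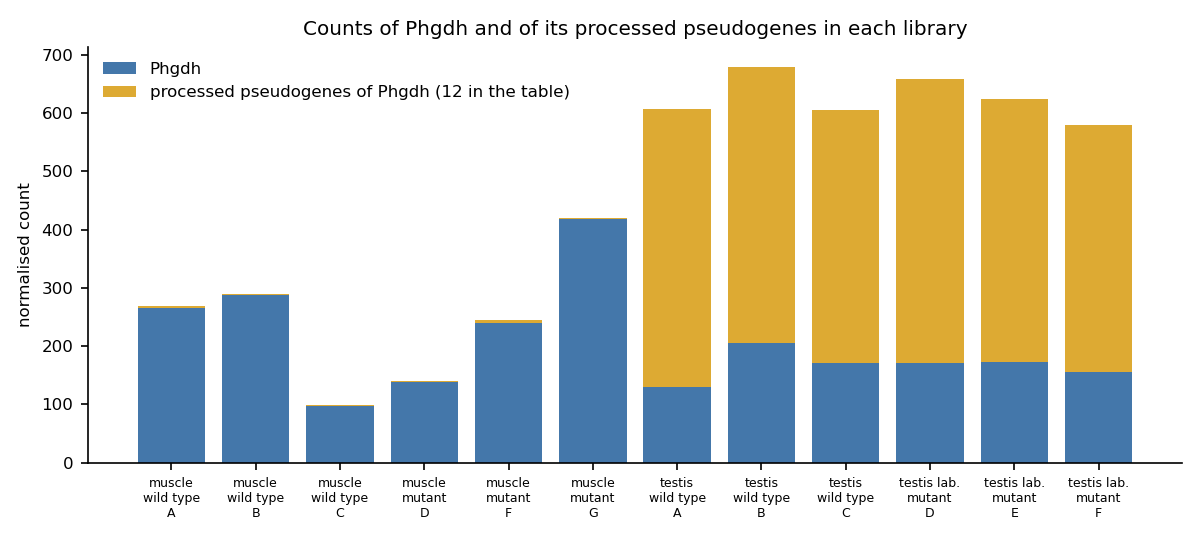
Normalised counts (y axis, from 0) of Phgdh and, stacked on it, of the 12 processed pseudogenes in the table, for each of the 12 libraries. The pseudogenes add 1.08 to 4.07 in muscle and 423 to 487 in testis, where they exceed Phgdh.

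The 2 serine hydroxymethyltransferases differed in opposite directions. Shmt2, the mitochondrial enzyme (ENSMUSG00000025403, chr10:127517123-127522444, minus strand), was at 368, 459 and 476 in wild-type muscle and 101, 112 and 116 in wild-type testis, a log2 difference of 1.97 (SE 0.14, adjusted p = 2e-06, limma). Shmt1, the cytosolic enzyme (ENSMUSG00000020534, chr11:60788104-60811718, minus strand), was at 241, 240 and 241 in muscle and 387, 415 and 469 in testis, a log2 difference of -0.81 (SE 0.10, adjusted p = 9.26e-05, limma). Neither gene had overlapping groups.

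Mthfd1 and Mthfd2 were further apart still. Mthfd1, the cytosolic trifunctional enzyme (ENSMUSG00000021048, chr12:76255298-76319803, plus strand), was at 762, 808 and 741 in wild-type muscle and 116, 128 and 130 in wild-type testis, which made it 6.18-fold higher in muscle (log2 difference 2.62, SE 0.10, adjusted p = 5.42e-08, limma). Mthfd2, the mitochondrial dehydrogenase and cyclohydrolase that is known mainly from embryonic and proliferating cells (ENSMUSG00000005667, chr6:83305691-83325908, minus strand), was at 78.5, 76.8 and 60.3 in muscle and 389, 363 and 367 in testis. It was 5.19-fold higher in testis, with a log2 difference of -2.37 (SE 0.14, adjusted p = 9.16e-07, limma). The mitochondrial formate-releasing enzyme Mthfd1l (ENSMUSG00000040675, chr10:3973118-4167081, plus strand) was at 35.3, 31.4 and 24.4 in muscle and 52.1, 57.5 and 74.3 in testis (log2 difference -0.99, SE 0.26, adjusted p = 0.0071, limma).

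Of the formyl-tetrahydrofolate dehydrogenases, the mitochondrial Aldh1l2 (ENSMUSG00000020256, chr10:83487450-83534140, minus strand) was at 96.8, 109 and 107 in wild-type muscle and 46.8, 30.8 and 39.3 in wild-type testis, a log2 difference of 1.41 (SE 0.22, adjusted p = 0.000346, limma). The cytosolic Aldh1l1 (ENSMUSG00000030088, chr6:90486427-90600203, plus strand) was at 496, 510 and 315 in muscle and 942, 1114 and 1031 in testis, a log2 difference of -1.25 (SE 0.18, adjusted p = 0.000225, limma). Neither gene had overlapping groups. Both genes share exon bases with an opposite-strand gene: 11.0% of the exon bases of Aldh1l1 with the antisense gene Gm15756, which was at 120 to 201 in muscle and 764 to 1084 in testis, and 14.1% of those of Aldh1l2 with D10Wsu102e, at 106 to 153 in muscle and 194 to 258 in testis. Reads of the partners cannot be told apart there unless strand was used.

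Left without testis A and B, the wild-type testis libraries with more islet transcripts, testis C alone was compared with the 3 wild-type muscle libraries, on the assumption that it varies as they do. Then 5 of the 10 genes passed. The log2 differences of Psat1 (-1.02, adjusted p = 0.196), Mthfd1l (-1.28, adjusted p = 0.0502) and Aldh1l1 (-1.26, adjusted p = 0.0579, all limma) were as large or larger but no longer past the threshold, which each of these genes met under its other alternatives.

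A ratio of 2 genes within a library does not depend on the scaling between libraries, and the 4 mitochondrial and cytosolic partners were therefore compared in this way, on counts per kilobase. The Shmt2 to Shmt1 ratio was 2.25 ± 0.304 in wild-type muscle and 0.324 ± 0.0134 in wild-type testis (SD, n = 3), so the mitochondrial gene was the higher one in muscle and the lower one in testis. For Mthfd2 to Mthfd1 the order was the reverse, with ratios of 0.119 ± 0.0140 in muscle and 3.83 ± 0.400 in testis. Mthfd1l to Mthfd1 likewise was lower in muscle, at 0.0394 ± 0.00673 against 0.490 ± 0.0702. Aldh1l2 to Aldh1l1 was higher in muscle, at 0.150 ± 0.0470 against 0.0231 ± 0.00661, with the cytosolic gene above the mitochondrial one in both tissues. For each of the 4 pairs no muscle library of either genotype overlapped with a testis library, and the exact two-sided permutation test between the wild-type groups gave p = 0.1, the smallest that 3 against 3 allows. This test took the libraries as independent, although mice A, B and C gave both tissues, and no paired test of the ratios was made.

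**Figure D3:**
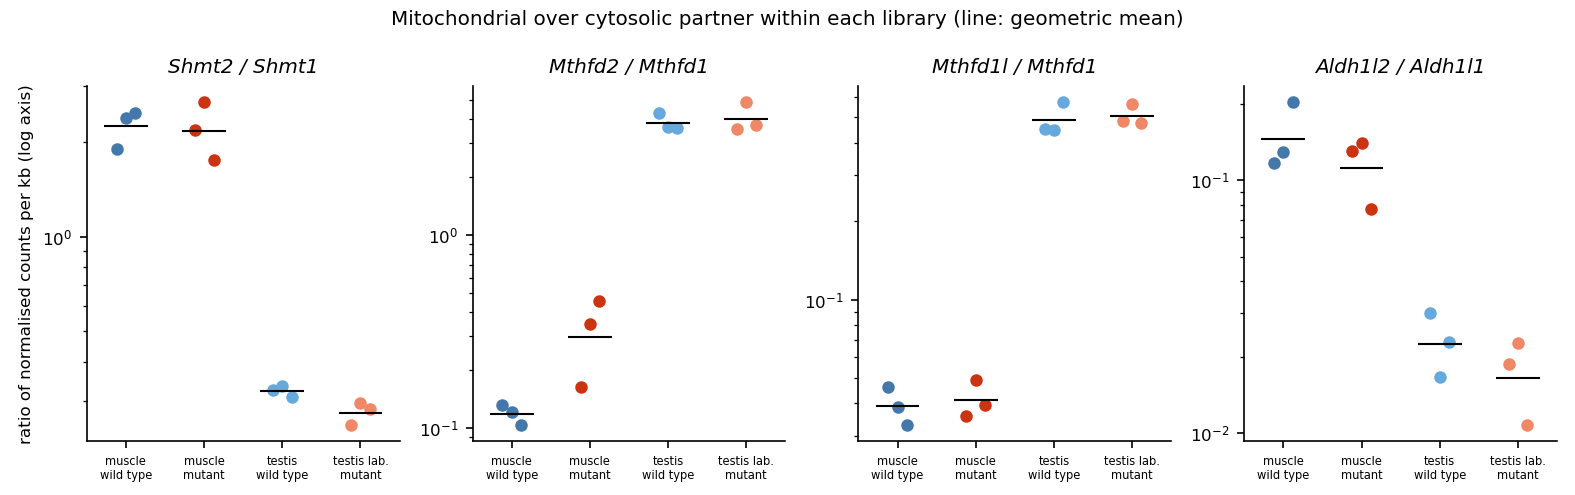
Ratio of the mitochondrial to the cytosolic gene in normalised counts per kilobase (log axes) in each library of the 4 groups, with the geometric mean as a line. Shmt2/Shmt1 and Aldh1l2/Aldh1l1 are higher in muscle, Mthfd2/Mthfd1 and Mthfd1l/Mthfd1 are higher in testis, and mutant muscle lies above wild-type muscle in Mthfd2/Mthfd1. In Shmt2/Shmt1, testis labelled mutant lies below wild-type testis.

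Because Shmt1 and Shmt2, and Mthfd1 and Mthfd2, differed in opposite directions between the tissues, the 120 bases before their RefSeq starts (GRCm38.p6) are shown, 5′ to 3′ on the strand of the gene. Capitals mark every match, on either strand, to 5 motifs: the ATF4 element TGATGNAA, the E-box CACGTG, the NRF-1 motif (GCGCA followed directly by its reverse complement TGCGC), the CCAAT box (CCAAT) and the GC box (GGGCGG).
Shmt1, chr11:60811266-60811385, minus strand: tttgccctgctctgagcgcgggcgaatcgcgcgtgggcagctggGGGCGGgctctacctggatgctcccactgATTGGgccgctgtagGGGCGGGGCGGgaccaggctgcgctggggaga
Shmt2, chr10:127522445-127522564, minus strand: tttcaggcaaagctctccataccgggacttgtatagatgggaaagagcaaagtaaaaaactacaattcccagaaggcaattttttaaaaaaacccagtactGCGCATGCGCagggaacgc
Mthfd1, chr12:76255112-76255231, plus strand: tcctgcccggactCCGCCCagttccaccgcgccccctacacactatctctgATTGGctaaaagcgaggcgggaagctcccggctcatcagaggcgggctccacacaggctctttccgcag
Mthfd2, chr6:83317605-83317724, minus strand: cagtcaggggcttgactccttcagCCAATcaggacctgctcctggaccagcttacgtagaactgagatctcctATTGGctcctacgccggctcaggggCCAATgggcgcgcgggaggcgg
Shmt1 held 1 CCAAT box and 3 GC boxes, 2 of them overlapping, whereas Shmt2 held neither and had the NRF-1 motif, starting 19 bases before its start. Mthfd1 held 1 CCAAT box and 1 GC box, and Mthfd2 held 3 CCAAT boxes and no GC box. Over the 10 windows found for 9 of the 10 genes (Psat1 has 2 and Aldh1l2 was not matched), a CCAAT box was present for 7 genes and a GC box for 6, against 21.3% and 26.5% of all 32851 windows of this length. The NRF-1 motif was present for Shmt2 only, against 0.584% of all windows. Neither the ATF4 element (1.82% of all windows) nor the E-box (3.66%) was found in the windows of these genes. The motifs were picked after values had been seen, and a match is a description of the letters.

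In muscle, mutant and wild-type libraries were compared to ask whether these enzymes differ with the Bckdk mutation. None of the 10 genes passed an adjusted p of 0.05 in limma, where 0.0369% of all 16246 genes tested did (6 genes). At an unadjusted p of 0.05 there were 2, Mthfd2 and Mthfd1, against 9.52% of all genes, and by edgeR and DESeq2 on recovered reads none of the 10 was called. The groups did not overlap for 4 of the 10 genes, 1 higher and 3 lower in the mutant, against 14% of all genes (5.11% higher and 8.85% lower). The median log2 difference, mutant minus wild type, was -0.17 over the 10 genes and -0.04 over all genes.

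Among the genes of serine synthesis, Phgdh was at 139 (D), 240 (F) and 418 (G) in the mutant, against 266 (A), 288 (B) and 97.6 (C) in the wild type. The highest and the lowest of the 6 values were thus mutant G and wild-type C, and the log2 difference was 0.30 (SE 0.44, adjusted p = 0.813, limma). Psat1 was at 130, 112 and 198 in the mutant, a log2 difference of 0.47 (SE 0.31, adjusted p = 0.595, limma), and again G was highest and wild-type C lowest. Psph was at 379, 344 and 236 in the mutant, with G lowest of all 6 libraries (log2 difference -0.12, SE 0.18, adjusted p = 0.823, limma). The signs for Phgdh and Psph were not stable. Without wild-type muscle C that of Phgdh was -0.20, and without mutant muscle G that of Psph was 0.082.

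For the serine hydroxymethyltransferases, Shmt1 was at 237, 183 and 204 in mutant muscle, below the 240 to 241 of the wild type in every library. Its log2 difference was -0.22 (SE 0.16, adjusted p = 0.619, limma). Shmt2 was at 413, 392 and 286 against 368 to 476 in the wild type, and the groups overlapped (log2 difference -0.26, SE 0.18, adjusted p = 0.6, limma). Neither difference passed the test.

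Of the 10 genes, the 2 with an unadjusted p below 0.05 in muscle were folate dehydrogenases. Mthfd2 was at 90.1 (D), 152 (F) and 161 (G) in the mutant, against 60.3 to 78.5 in the wild type, so all 3 mutant libraries lay above all wild-type ones, although D only slightly. The mean was 1.87-fold that of the wild type, the log2 difference 0.86 (SE 0.25, 95% interval 0.29 to 1.42), the unadjusted p = 0.00642 and the adjusted p = 0.519 over all genes (limma). Mthfd1 went the other way, at 704, 558 and 448 against 741 to 808, also without overlap (log2 difference -0.46, SE 0.17, unadjusted p = 0.0199, adjusted p = 0.519, limma). For both genes mutant D was nearest to the wild type. Mthfd1l was at 25.1, 27.5 and 17.6 against 24.4 to 35.3, with overlap (log2 difference -0.37, SE 0.34, adjusted p = 0.692, limma).

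Whether Mthfd2 passed depended on mutant muscle D. Without this library its log2 difference was 1.12 with an adjusted p = 0.0315 (limma; 0.0315 to 1.0 over the 17 alternatives tried), and 497 genes in all then passed in place of 6. The 2 mutant libraries left in that comparison, F and G, are those with the higher islet sums. With D as the only mutant library, assumed to vary as the wild type does, the log2 difference of Mthfd2 was 0.33 and that of Mthfd1 was -0.13, and neither passed (adjusted p = 1.0, limma). Without F or without G, Mthfd2 was at 0.74 or 0.70 and did not pass. The part of the islet transcripts in this result was not tested.

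The per-kilobase ratio of Mthfd2 to Mthfd1, which carries both differences, was 0.131, 0.121 and 0.104 in the wild-type muscle libraries and 0.163 (D), 0.346 (F) and 0.457 (G) in the mutant ones. All mutant values lay above all wild-type values and the log2 difference of the ratios was 1.32, with an exact two-sided permutation p = 0.1, the smallest possible, and 0.4 after Benjamini-Hochberg adjustment over the 4 pairs. Even at its highest it remained far below the 3.53 to 4.88 of the testis libraries. The other 3 ratios overlapped between genotypes in muscle. In testis the Shmt2 to Shmt1 ratio was 0.325, 0.336 and 0.309 in the wild type and 0.252, 0.296 and 0.283 in the libraries labelled mutant, without overlap. Its log2 difference was -0.23, with the same exact two-sided permutation p = 0.1 and 0.4 after adjustment. The other 3 ratios overlapped in testis.

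For formyl-tetrahydrofolate oxidation, Aldh1l2 was at 86.7, 87.6 and 80.8 in mutant muscle, below the 96.8 to 109 of the wild type (log2 difference -0.29, SE 0.19, adjusted p = 0.595, limma). Aldh1l1 was at 398, 376 and 630 against 315 to 510 and overlapped (log2 difference 0.08, SE 0.23, adjusted p = 0.915, limma). Its sign turned to -0.15 without mutant muscle G.

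**Figure D4:**
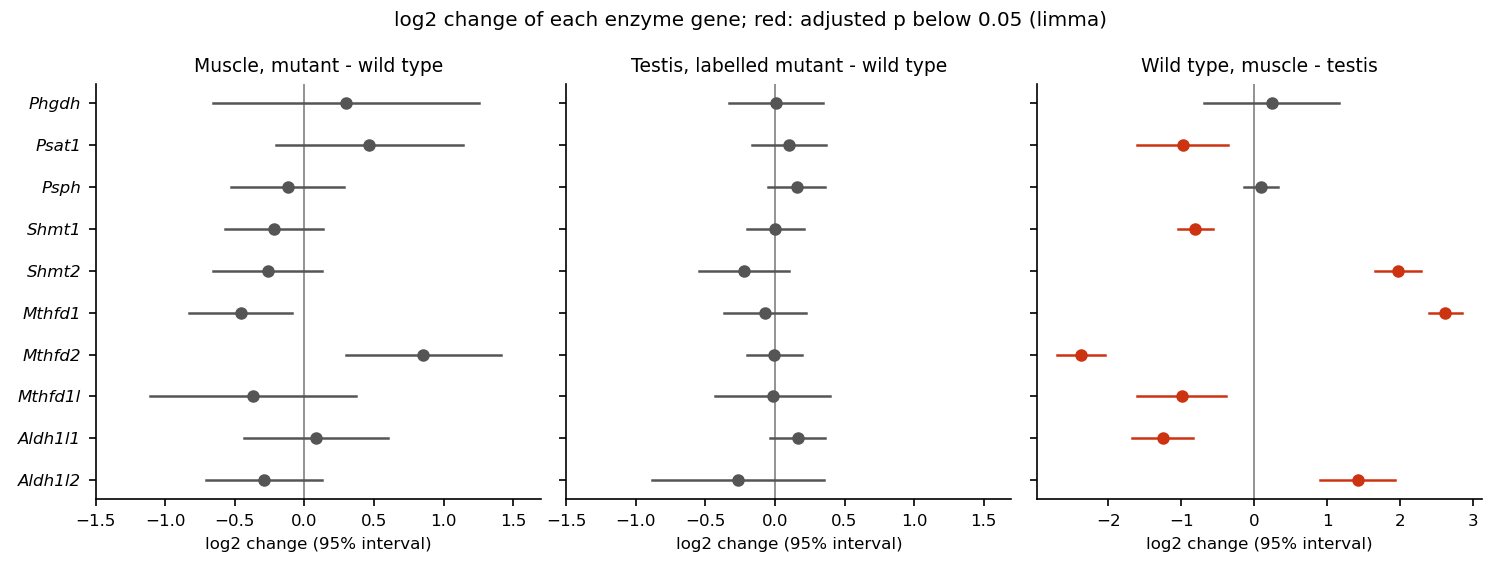
log2 difference of each gene (points) with its 95% interval (lines) from limma, for mutant minus wild type in muscle, labelled mutant minus wild type in testis, and wild-type muscle minus wild-type testis; the x axis of the last panel is wider. Red marks an adjusted p below 0.05, reached by 8 genes between the tissues and by none between the genotypes.

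Transcripts of other cells differed among the same muscle libraries. Of all genes tested in muscle, 44.5% had a higher mean in the mutant. All 7 adipocyte markers, each detected in both groups, had a higher mean in the mutant and none passed the test. Their sum was 36321 (A), 27414 (B) and 8364 (C) in the wild type and 25992 (D), 27665 (F) and 86174 (G) in the mutant, which puts C lowest and G highest of the 6. The sum of 9 fibroblast and tendon markers did not overlap, at 20727 to 23180 in the wild type and 23749 to 29288 in the mutant, and all 9 had a higher mean in the mutant, none of them past the test. All 8 tested markers of pancreatic acinar cells also had a higher mean in the mutant, with sums of 127 to 276 and 286 to 436, and Prss1 and Amy2a5 were at 0 in all wild-type muscle libraries. All 12 islet markers had a higher mean in the mutant, and none passed. At an unadjusted p of 0.05 in limma there were 2 of 7 adipocyte and 5 of 9 fibroblast and tendon markers. There were also 4 of 8 acinar and 6 of 12 islet markers, against 9.52% of all genes. A higher mean in the mutant was found for 3 of 6 endothelial, 5 of 6 macrophage and 2 of 4 Sertoli cell markers. It was found for 1 of 4 satellite cell and 1 of 4 Leydig cell markers. Other lists lay lower: 11 of 12 germ cell markers had a lower mean in the mutant (median log2 difference -0.78, 3 with an unadjusted p below 0.05, none past the test), and 9 of 12 skeletal muscle markers did (median -0.24). The germ cell sum was 2993 to 3401 in the wild type and 3668 (D), 1628 (F) and 1509 (G) in the mutant. Both sums were lowest of the 6 in F and G, the libraries in which Mthfd1 and Mthfd2 lay farthest from the wild type.

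The adipocyte sum was itself lowest in C and highest in G. Genes with their highest value in G and their lowest in C share these ends, so a high r over the 6 muscle libraries follows in part from how they were picked. For Phgdh Pearson's r with the summed markers was 0.90 (exact permutation p = 0.0111) and Spearman's rho 0.83 (exact permutation p = 0.0583). For Aldh1l1 r was 0.91 (exact permutation p = 0.0222) and rho 0.71 (p = 0.136), and for Psat1 r was 0.96 (exact permutation p = 0.0444) and rho 0.54 (p = 0.297). For Mthfd2, also highest in G and lowest in C, r was 0.74 (exact permutation p = 0.0611) and rho 0.71 (p = 0.136). Shmt2 ran the other way, with r = -0.89 (exact permutation p = 0.00833) and rho = -0.94 (p = 0.0167). For Mthfd1 the strongest relation was with the fibroblast and tendon sum, with r = -0.96 (exact permutation p = 0.00833) and rho = -0.94 (p = 0.0167). With that sum r was 0.87 for Mthfd2 (exact permutation p = 0.0667). For summed macrophage, satellite cell and endothelial markers the r of Mthfd2 was 0.86, -0.88 and -0.06 (exact permutation p = 0.131, 0.0694 and 0.994). These are among 50 relations computed after the values had been seen, and none passed after Benjamini-Hochberg adjustment, the lowest adjusted p being 0.185. The genotypes were pooled, and the permutations exchanged libraries between them. Mthfd1 and the fibroblast and tendon sum each separated the genotypes without overlap, so their r also carries that difference. Without C and G, the libraries farthest from the median, r with the adipocyte sum was 0.50 for Phgdh, 0.54 for Aldh1l1 and -0.15 for Psat1. It was -0.33 for Mthfd2 and -0.70 for Shmt2, so the relations with the adipocyte sum rest largely on these libraries. For the fibroblast and tendon, macrophage and satellite cell sums the 2 farthest libraries were F and G. Without them r with the fibroblast and tendon sum was -0.81 for Mthfd1 and -0.04 for Mthfd2. That of Mthfd2 was then -0.79 with the macrophage sum and -0.02 with the satellite cell sum, so the relations of Mthfd2 with these sums rested on F and G. The part of these cells in the differences between genotypes was not tested.

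**Figure D5:**
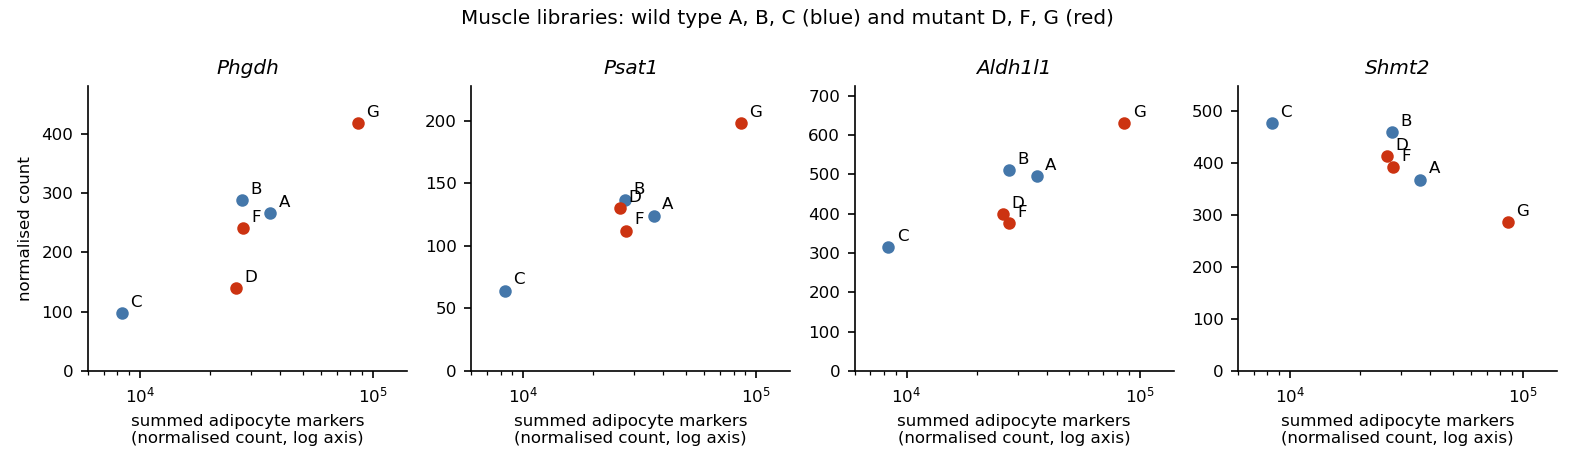
Normalised counts of Phgdh, Psat1, Aldh1l1 and Shmt2 (y axes, from 0) against the summed normalised counts of 7 adipocyte markers (log x axis) in the 6 muscle libraries, lettered by mouse. Wild-type C and mutant G mark the ends of the x axis, and the other 4 libraries lie between 25992 and 36321.

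In testis, the libraries labelled mutant and the wild-type libraries were compared by the labels as given. None of the 10 genes passed in limma, where 0.0205% of 19543 genes did (4 genes), none had an unadjusted p below 0.05 (7.09% of all genes), and the groups overlapped for all 10, against 13.4% of all genes that did not overlap. By edgeR and DESeq2 none of the 10 was called either. The log2 differences, labelled mutant minus wild type, ran from -0.27 for Aldh1l2 to 0.16 for Aldh1l1, with a median of -0.00, against 0.03 over all genes.

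Within that range, Aldh1l1 was at 1262, 1008 and 1193 in testis D, E and F labelled mutant, against 942 to 1114 in the wild type (log2 difference 0.16, SE 0.09, adjusted p = 0.747, limma). Psph was at 377, 339 and 353 against 304 to 350 (0.16, SE 0.09, adjusted p = 0.755, limma), and Shmt2 was at 83.7, 107 and 91.5 against 101 to 116 (-0.22, SE 0.15, adjusted p = 0.778, limma). Each of these overlapped by 1 library or more. Mthfd2, at 347, 406 and 365 against 363 to 389, had a log2 difference of -0.00 with a 95% interval from -0.20 to 0.19. Mthfd1 was at 106 to 125, Shmt1 at 403 to 452, Psat1 at 191 to 256, Phgdh at 156 to 173, Mthfd1l at 59.5 to 60.5 and Aldh1l2 at 21.3 to 39.3. The pseudogenes of Phgdh summed to 454 ± 32.2 there and to 463 ± 23.2 in the wild type.

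Markers of other cells also differed among the testis libraries, none past the test. Of all genes tested in testis, 59.6% had a higher mean in the libraries labelled mutant, and 7.09% had an unadjusted p below 0.05 in limma. Of 12 skeletal muscle markers 11 had a higher mean in the libraries labelled mutant (median log2 difference 2.04, 6 with an unadjusted p below 0.05), with sums of 7695 (A), 685 (B) and 17635 (C) in the wild type and 15650 to 17369 in those labelled mutant. Of 9 Leydig cell markers 8 had a higher mean (4 with an unadjusted p below 0.05), with sums of 7804 to 7828 and 7876 to 10021. Of 13 germ cell markers 12 had a higher mean, with sums of 185785 to 198274 and 205715 to 214853. Lower means were found for 5 of 6 endothelial markers (sums of 631 to 819 and 585 to 661), for 6 of 7 fibroblast and tendon markers and for 10 of 12 islet markers. The remaining lists were more evenly split, with a higher mean for 6 of 10 Sertoli cell, 3 of 6 adipocyte, 4 of 6 macrophage and 4 of 8 acinar markers. The part of these cells in the values of the 10 genes was not tested.

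The difference between the tissues in the genotype effect was tested as an interaction over all 12 libraries, by the labels as given. In testis Bckdk went against these labels, so whether the testis part is an effect of the genotype is not known. None of the 10 genes passed, where 0.0136% of 14677 genes did (2 genes), and at an unadjusted p of 0.05 there was 1, Mthfd2, against 8.69% of all genes. Its effect in muscle was larger than that in testis by 0.86 on the log2 scale (SE 0.28, unadjusted p = 0.00928, adjusted p = 0.562, limma). No gene of the 10 was called by edgeR or DESeq2. Without mutant muscle D the difference of Mthfd2 was 1.12 with an adjusted p = 0.00483 (limma; 0.00483 to 1.0 over 23 alternatives), and 951 genes in all then passed.

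Genes around these enzymes were taken from 6 lists, and in limma no gene of these lists passed in muscle or in testis. Among enzymes that use serine or glycine, 0 of 9 passed in muscle, and the smallest p values belonged to Srr, the serine racemase (636 ± 46.1 in the wild type and 551 ± 6.51 in the mutant, adjusted p = 0.586, limma), and Gldc of the glycine cleavage system. Among 9 serine and glycine carriers, the mitochondrial glycine carrier Slc25a38 was at 274 ± 18.2 and 216 ± 13.9 (log2 difference -0.35, adjusted p = 0.519, limma) and the glycine transporter Slc6a9 at 155 ± 27.8 and 113 ± 18.8 (-0.45, adjusted p = 0.519, limma), both without overlap. The median log2 differences of these 2 lists were 0.06 and 0.05.

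Of 12 other folate genes tested in muscle, Ggh, which removes glutamates from folates, was at 120 ± 20.0 in the wild type and 178 ± 42.0 in the mutant (log2 difference 0.55, adjusted p = 0.519, limma). Tyms, thymidylate synthase, was at 10.3 ± 3.65 and 20.1 ± 4.49 (0.93, adjusted p = 0.53, limma), close to the filter of 10. In the methionine cycle, with 14 genes tested, the methionine synthase Mtr, which takes its methyl group from folate, was at 262 ± 9.66 and 170 ± 56.0 (-0.68, adjusted p = 0.519, limma). Its mutant values of 222 (D), 176 (F) and 111 (G) lay below the 251 to 270 of the wild type. The synthase reductase Mtrr, at 425 ± 32.7 and 311 ± 81.8, had overlapping groups (adjusted p = 0.519, limma).

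For de novo purine synthesis, 11 of 13 genes had a lower mean in mutant muscle, where 44.5% of all genes had a higher one, and the median log2 difference was -0.13. The smallest p values were those of Ppat, the committing amidotransferase (769 ± 52.8 and 636 ± 124, adjusted p = 0.554, limma), and Adssl1, the muscle adenylosuccinate synthase (adjusted p = 0.611, limma). Of 17 ATF4 pathway genes, 4 had an unadjusted p below 0.05 in muscle, against 9.52% of all genes, and they did not go one way, with 8 higher and 9 lower means. Chac1, which degrades glutathione, was at 665, 2570 and 2541 in the wild type and 405, 403 and 603 in the mutant (log2 difference -1.82, adjusted p = 0.519, limma), without overlap. Atf5 was at 1208 ± 155 and 1778 ± 68.8 (0.56, adjusted p = 0.519, limma), also without overlap and in the direction of Mthfd2. Of the 4, Trib3 was likewise higher in the mutant (1.48, adjusted p = 0.519, limma) and Vldlr lower (-0.48, adjusted p = 0.519, limma), both without overlap.

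At an unadjusted p of 0.05 there were 9 genes over the 6 lists in muscle (of 74 tested) and 4 in testis (of 77 tested), against 9.52% and 7.09% of all genes. The 4 genes in testis were the amino acid carrier Slc36a1 (194 ± 15.9 in wild-type libraries, 153 ± 4.15 in those labelled mutant, adjusted p = 0.696, limma), Chac1 (19.1 ± 6.16 and 32.6 ± 7.40, adjusted p = 0.696, limma), Adssl1 (73.9 ± 51.0 and 120 ± 6.99, adjusted p = 0.698, limma) and the mitochondrial folate carrier Slc25a32 (63.7 ± 7.01 and 82.7 ± 5.70, adjusted p = 0.698, limma). Chac1 and Adssl1 overlapped, and the other 2 did not.

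Between the wild-type tissues, 65 of the 80 genes tested over the 6 lists passed, 40 higher in muscle and 25 lower. The share of all genes was 87.5% (36.5% higher and 51.1% lower in muscle). Purine synthesis had 9 of 13 genes higher in muscle and 3 lower, with Adsl 5.47-fold higher and Gmps 7.14-fold lower in muscle (both past the test). In the methionine cycle 7 of 15 were higher and 5 lower in muscle. Bhmt, which remethylates homocysteine from betaine, was at 11.4, 13.0 and 6.42 in muscle and 1208, 1228 and 1119 in testis, and the methionine adenosyltransferase subunit Mat2b was 7.43-fold higher in muscle. Of 13 other folate genes 4 were higher and 5 lower in muscle. The folate receptor Folr1 was at 1.14, 1.08 and 10.3 in muscle and 124, 149 and 146 in testis, and the reduced folate carrier Slc19a1 at 115 ± 36.3 and 18.4 ± 2.53.

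The glycine cleavage protein Gcsh (872 ± 59.2 in muscle and 120 ± 25.1 in testis) and Gcat, the glycine acetyltransferase (145 ± 39.0 and 36.2 ± 5.56), led the 4 of 12 serine and glycine users that were higher in muscle, against 6 that were lower. Of 9 carriers 5 were higher and 1 lower in muscle, and the neutral amino acid exchanger Slc1a5 was at 4006, 3018 and 1231 in wild-type muscle and at 172 to 219 in testis. In the ATF4 pathway 11 of 18 were higher and 5 lower in muscle. Each of these counts stands against the 36.5% of all genes that were higher and the 51.1% that were lower. Asns, asparagine synthetase, was 17.0-fold lower in muscle, and Chac1 was 101-fold higher.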

How the data were processed

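The authors deposited signal values per gene, namely normalised counts: the reads of a gene over the size factor of the library, set on all 12 libraries together, and regularised log2 values for 27384 of the 47730 features. Tools in the submitters' processing notes, whose roles are not stated, are HTSeq 0.11.2, HISAT2 2.1.0, DESeq2 1.46.0, fastp 0.23.4 and Picard 1.119, with the build GRCm38.p4. How strand and reads with several matches were treated is not given in the sources used here. PolyA-selected RNA with an RQN above 7.2 was, per the labels' protocols, read in pairs of 150 bases. The low values of a library give what 1 read is worth, and 100% of values were then whole reads within 0.001, which gives the depth. Values of 26 features in testis D had become dates and were treated as missing, none of them among the 10 genes.

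Normalised counts were compared as log2(value + 1) by two-sided limma tests with a trend (limma 3.58.1, R 4.3.3), for genes at 10 or more in at least 3 of a tissue's 6 libraries, or in either tissue for the comparison between tissues. Adjustment was by Benjamini-Hochberg over all genes tested, with calls below 0.05. They measure the spread between libraries, which the labels call biological replicates. Simulated data were used to check the scripts. Levels per kilobase divide by the GENCODE M21 exon length. Near copies were found with BLAST 2.17.0+, and promoters are from RefSeq (GRCm38.p6). Protein sequences were not used here. The members, lists, motifs and naming rule were chosen with earlier results of these data known. All 10 members were named, and from each pathway list the 2 genes with the smallest p per genotype comparison and up to 2 called genes per direction between tissues with a mean of at least 50, from which the text takes examples. Trib3 and Vldlr in muscle were added outside this rule.

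The columns carry 7 mouse numbers, 5 of them in both tissues. The labels do not give these numbers, and a shared number was taken to mark muscle and testis of the same mouse. The deviations of such pairs from their group means correlated by -0.04 to 0.01 over 14677 genes. Pairs of the same genotype with different numbers correlated by -0.06 to 0.08. A fit with the mouse as a replicate block was an alternative for the 2 comparisons that span tissues. The other alternatives, run for every comparison, were a pseudocount of 0.5 or 8, a filter at a mean of 50 or none, median-of-ratios and TMM scaling, the deposited log2 values, edgeR 4.0.16 and DESeq2 1.42.0 on recovered reads, and leaving out each library or those with an islet sum over 1.25 times the tissue median. Fitting all 12 libraries in 1 model was tried for the genotype comparisons, and adding the pseudogenes to Phgdh was chosen after seeing the data.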

Additional observations from a re-analysis of the deposited data

How the results depend on the processing

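Between the wild-type tissues, the 8 genes called kept their direction under all alternatives. The number called was 5 without the libraries with more islet transcripts, and 8 to 9 when each library was left out. Phgdh was not stable: its log2 difference was -0.039 to 0.74 when each library was left out and -1.67 with its pseudogenes added. With the mouse as a replicate block 8 genes were called there, 18323 of all genes passed in place of 18483, and Mthfd2 in the difference between tissues was at 0.86 (adjusted p = 0.61, limma), so the block changed no call. No paired analysis was possible within a tissue because its groups hold different mice and the columns carry no replicate number.

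Between the genotypes, none of the 10 genes was called under any alternative except Mthfd2 without mutant muscle D, so that the number called ran from 0 to 1 in muscle, and from 0 to 1 for the difference between tissues, when each library was left out. The cause was not tested. The number of all genes called was less stable. In muscle the 6 genes became 14 with no filter, 36 with DESeq2, 28 with all 12 libraries in 1 model and 3 to 497 when each library was left out. The 4 genes in testis became 1 with a pseudocount of 0.5, with a mean of at least 50, with median-of-ratios or TMM scaling and without the libraries with more islet transcripts, 2 with the deposited log2 values, 10 with DESeq2, and 1 to 6 when each library was left out. For the difference between tissues, 2 became 1 with no filter, with a mean of at least 50, with edgeR and without the libraries with more islet transcripts, 50 with DESeq2 and 1 to 951 when each library was left out.

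The genes whose sign turned had not passed the test. In muscle, without the libraries with more islet transcripts, the log2 difference was -0.49 for Phgdh, 0.15 for Psph and -0.11 for Aldh1l1. When each library was left out it ran from -0.20 to 0.69, from -0.26 to 0.082 and from -0.15 to 0.22 for these genes. In testis Phgdh was at -0.025 with median-of-ratios and -0.022 with TMM scaling, -0.054 with edgeR, -0.052 with DESeq2, -0.031 without the libraries with more islet transcripts and -0.024 with its pseudogenes. Shmt1 was at -0.030 and -0.027 with these scalings, -0.037 with edgeR, -0.034 with DESeq2 and -0.15 without those libraries, where Mthfd2 was at 0.020. When each testis library was left out, the range was -0.16 to 0.16 for Phgdh, -0.060 to 0.079 for Shmt1, -0.067 to 0.046 for Mthfd2, -0.12 to 0.13 for Mthfd1l, -0.017 to 0.20 for Psat1, -0.13 to 0.0066 for Mthfd1 and -0.42 to 0.011 for Aldh1l2. With 3 libraries a group, the standard errors in muscle of 0.16 to 0.44 on the log2 scale limit which differences between genotypes could be called, and a p above the threshold does not show that the groups were alike. Mthfd1l in both tissues, Aldh1l2 in testis and Mthfd2 in wild-type muscle rest on fewer than 80 normalised counts a library, as does Psat1 in wild-type muscle C.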
